A study of Mus musculus with 9 samples.

Results

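RNA of 9 mouse testis samples was examined for 10 genes of the HSP70 and HSP90 chaperone families: Hspa2, Hspa1l, Hspa1a, Hspa1b, Hspa4l, Hspa5, Hspa8, Hspa9, Hsp90aa1 and Hsp90ab1. The genes were taken by their symbols from a table of 22337 genes, and each was found in 1 row. The samples were taken at 3 weeks of age, and 3 were wild-type, 3 were heterozygous for a knock-in allele of Piwil4 (genotype Piwil4 WT/R264W) and 3 were homozygous for it (genotype Piwil4 R264W/R264W). This allele, R264W, was made by CRISPR-Cas9 in C57BL/6 zygotes and replaces an arginine of PIWIL4, a germ cell protein that binds small RNAs, by tryptophan. The samples are whole testes, so germ cells, Sertoli cells and interstitial cells are measured together. At this age the testis is in the first wave of spermatogenesis, the synchronous round in which spermatocytes and then spermatids appear. No label gives how far that wave had come in a mouse, so it was read from the RNA.

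HSP70 proteins bind short hydrophobic stretches of unfolded proteins and release them in a cycle of ATP hydrolysis, which DnaJ (HSP40) proteins start and nucleotide exchange factors reset. HSP90 proteins act later, on nearly folded clients such as kinases and steroid receptors, with their own set of cochaperones. Most tissues rely on a constitutive cytosolic HSP70 (Hspa8), an inducible pair (Hspa1a and Hspa1b) and dedicated forms in the endoplasmic reticulum (Hspa5) and mitochondria (Hspa9). Male germ cells add their own members: Hspa2 is known from meiotic spermatocytes, where it is needed to finish meiosis, Hspa1l from haploid spermatids, and Hspa4l, of the HSP110 branch, from both.

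Sequencing depth, as the sum of a testis's estimated counts, ranged up to 24.3 M, and the shallowest library held 17.96 M. All 10 chaperone genes passed the filter on low counts in every comparison. The tissue was testis by its markers, with Ldhc, the lactate dehydrogenase of spermatocytes, between 1945 and 2335 FPKM (fragments per kilobase of transcript, scaled to the number of mapped fragments). Homozygous replicate 1 stood apart for epididymal genes, with a score (mean log2 CPM) of -0.945 over 8 genes against -3.51 to -2.25 in the other testes, and homozygous replicate 2 for muscle genes, at -0.490 against -2.84 to -1.77. Homozygous replicate 3 was highest for adipocyte genes, at 1.87 over 6 genes against -1.48 to 0.694. Of the 8 epididymal genes 3 were at 0 in every testis, and the part of such tissue in the chaperone values was not tested. With any 1 of these testes left out, Hspa1l and Hspa2 were still called higher with the round spermatid score defined next, and Hspa4l was not. Piwil4 itself was counted at 38, 34 and 33 in the wild-type testes. It had 46, 20 and 40 counts in the heterozygous and 31, 29 and 18 in the homozygous testes. The homozygous testes had a log2 fold change of -0.48 against wild-type (standard error 0.23, 95% interval -1.03 to 0.07). This difference did not pass with edgeR (unadjusted p = 0.0784, adjusted p = 0.9998). Gene counts cannot show the allele itself. The round spermatid score, the mean log2 CPM (counts scaled to library size by TMM) of 19 genes of round spermatids that include no chaperone of the 10, placed the testes along the first wave. It was 5.97, 3.55 and 2.67 in the wild-type, 5.14, 4.52 and 2.05 in the heterozygous and 3.58, 4.38 and 5.83 in the homozygous testes. Each genotype held testes below and above the median score of 4.38. The lowest homozygous score, 3.58, was above the lowest of each other genotype. The range of 3.92 was filled without a wide gap (the largest was 0.888). All 19 genes of the score had higher estimates in homozygous than in heterozygous testes (log2 fold changes of 0.32 to 0.74). All had lower ones in heterozygous than in wild-type testes (-0.92 to -0.09). Between homozygous and wild-type testes they lay between -0.18 and 0.34. None of these differences passed an adjusted p under 0.05 with edgeR. A slope on this score is the log2 change of a gene per unit of score, so that a slope of 1 means that a gene changed in proportion to the round spermatid genes.

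Hspa1b, Hspa1a and Hspa1l lie beside each other on chromosome 17 (GRCm38 coordinates throughout, from GENCODE, since the deposited table holds none). Hspa1b runs from 34956436 to 34959238 and Hspa1a from 34969190 to 34972156, both on the minus strand and each in 1 exon. Hspa1l runs from 34972703 to 34979285 on the plus strand in 2 exons, with its coding sequence in the second. The starts of Hspa1a and Hspa1l are thus 546 bp apart and point away from each other. The coding sequences of Hspa1a and Hspa1b are identical at 99.4% of 1926 aligned positions, and those of Hspa1a and Hspa1l at 82.9% of 1934. The 250 bases before the starts of Hspa1l and Hspa1a are shown (RefSeq, GRCm38.p6, 5′ to 3′ on the strand of each gene) because these neighbours behaved differently across the testes. RefSeq windows were found for 6 of the 10 genes. Capitals mark matches to motifs that were searched on both strands.
Hspa1l, plus strand, chr17:34972453-34972702: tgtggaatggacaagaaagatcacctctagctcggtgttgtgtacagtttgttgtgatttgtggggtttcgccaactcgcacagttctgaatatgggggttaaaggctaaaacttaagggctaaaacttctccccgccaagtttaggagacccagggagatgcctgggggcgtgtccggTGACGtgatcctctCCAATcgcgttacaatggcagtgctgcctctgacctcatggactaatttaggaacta
Hspa1a, minus strand, chr17:34972157-34972406: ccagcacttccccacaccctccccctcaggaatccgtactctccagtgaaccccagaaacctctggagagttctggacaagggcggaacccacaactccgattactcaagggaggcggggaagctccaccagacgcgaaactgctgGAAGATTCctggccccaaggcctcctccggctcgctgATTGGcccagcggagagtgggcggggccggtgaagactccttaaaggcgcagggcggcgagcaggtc
In the Hspa1l window the capitals are TGACG, the core of the cAMP response element, 71 bases before the start, and a CCAAT box 57 bases before it. In the Hspa1a window they are GAANNTTC, 2 inverted units of the heat shock element that heat shock factors bind, 104 bases before the start, and a CCAAT box on the other strand 67 bases before it. GAANNTTC had no match in the Hspa1l window and TGACG none in the Hspa1a window. The Hspa1b window differs from that of Hspa1a at 3 of 250 positions and holds the same matches at the same places. Over 32851 promoter windows of the same length, 6.69% held GAANNTTC, 17.8% TGACG and 33.8% CCAAT. TTCNNGAA (7.17% of windows), TATAAA (12.4%) and TATAAG (6.65%) had no match in these windows. A match describes letters in a window and not a site in use.

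The likeness of the 3 neighbours bears on their values, because reads that match more than 1 of them can be split between them. The counts of Hspa1a and Hspa1b were not whole numbers in any testis, while the counts of Hspa1a, Hspa1b and Hspa1l summed to a whole number (within 0.02) in 9 of 9. Hspa1l alone had a whole count in 5 of 9. The division between Hspa1a and Hspa1b is therefore uncertain, and their sum is given beside them. Hspa8 also never had a whole count, and the source of this was not tested. The small nucleolar RNA genes Snord14c, Snord14d and Snord14e lie in its introns, and their part in its counts was not tested either. Hspa1l has an antisense neighbour, Gm10501, which was not analysed here, and Hspa1a has Gm20481, which was listed at 0 in every testis. Whether the counting used strand is not given in the sources used here.

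Hsp90aa1, the stress-responsive form of cytosolic HSP90 that is highly expressed in germ cells, was the most abundant of the 10 per length, at 1312 ± 82.8 FPKM (SD, n = 9). Hspa2 followed at 595 ± 47.1 FPKM, with no overlap of its range with that of Hsp90aa1 or of the next gene. Hspa5 (385 ± 37.2), Hspa4l (349 ± 21.3), Hspa8 (275 ± 48.3) and Hsp90ab1 (272 ± 33.2 FPKM) formed a series in which each range overlapped that of the next. Within a testis, Hspa5 was above Hspa4l in 7 of 9 testes, Hspa4l above Hspa8 in 8 and Hspa8 above Hsp90ab1 in 7. Hspa9 stood apart at 158 ± 4.01 FPKM, and its highest testis was 1.09 times its lowest, the smallest such ratio of the 10. The 3 genes of the chromosome 17 group were far lower, with Hspa1l at 11.1 ± 13.2, Hspa1b at 3.84 ± 0.881 and Hspa1a at 2.05 ± 0.446 FPKM. Hspa1b exceeded Hspa1a in 9 of 9 testes, and Hspa1l exceeded Hspa1b in 4. In these testes the germ cell form Hspa2 thus outnumbered the constitutive Hspa8 per length by 1.59 to 3.23 times, and the inducible pair was present at low level in every testis. The values of Hspa8 rest on counts that were never whole.

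Hspa1l rose steeply with the progress of the first wave. It stood at 33.79, 2.72 and 1.54 FPKM in the wild-type testes, at 17.84, 3.73 and 1.28 in the heterozygous testes and at 1.79, 6.18 and 31.42 in the homozygous testes. Its highest testes were those with the highest score in each genotype, and its order followed the order of the score in 3 of 3 genotypes. In CPM it ranged from 3.10 to 92.1, a ratio of 29.7. The slope was 1.47 log2 per unit of score (standard error 0.11, adjusted p = 1.77e-07). This was above the 19 genes of the score itself, whose slopes lay between 0.42 and 1.34. It was within the range of the 8 genes of the elongating spermatid list, which lay between 1.03 and 2.98. Of 15771 genes tested, 175 had a larger slope. Over the range of the score this slope gives a 54.2-fold change, more than the observed ratio of 29.7 in CPM. Without the 2 testes with the highest score the slope was 1.23. The counts of Hspa1l ran from 59 to 1979, while those of its neighbours, with which it can share reads, stayed between 76.7 and 169 for Hspa1a and between 177 and 317 for Hspa1b.

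**Figure D1:**
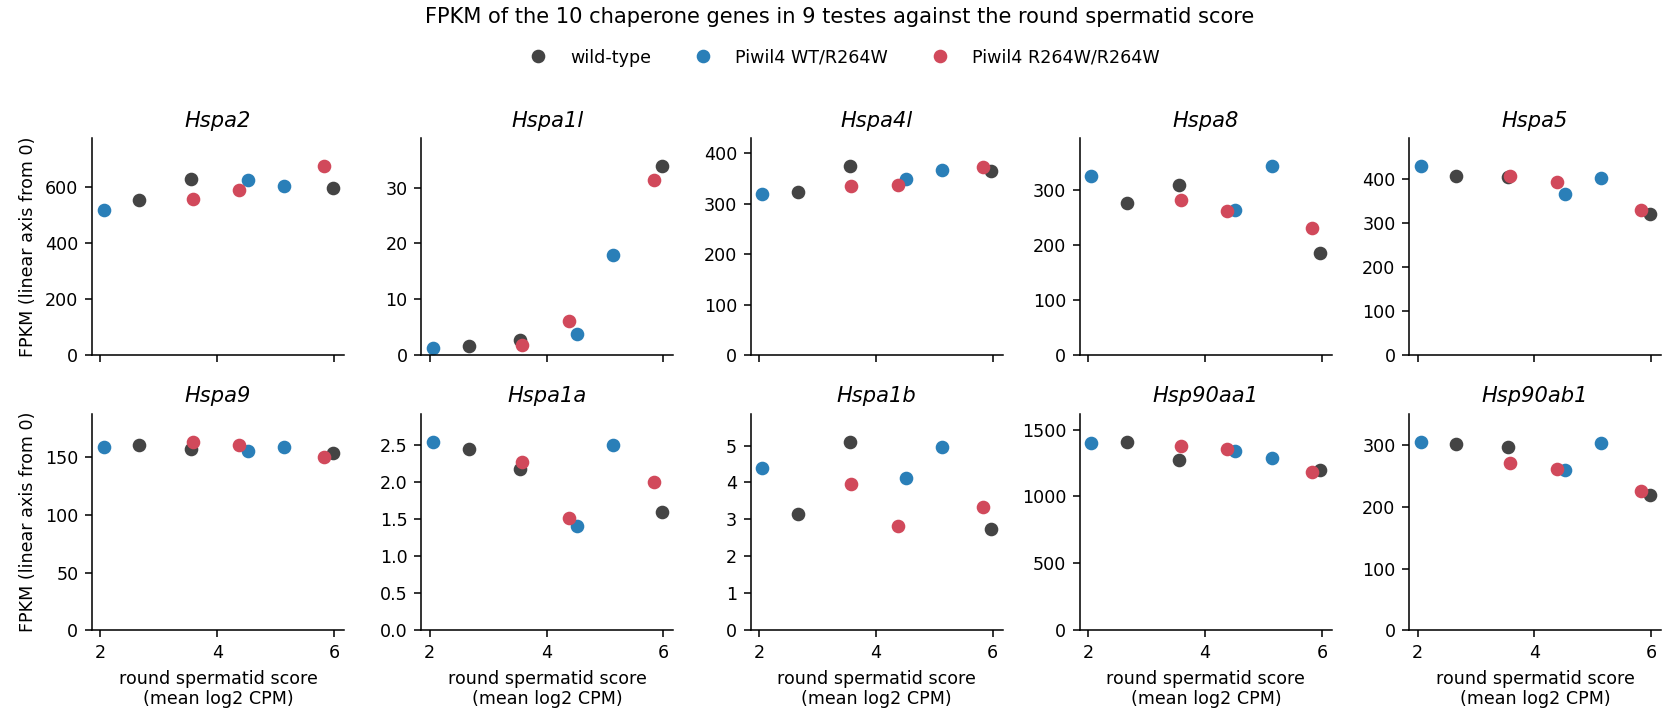
FPKM (linear axes from 0) of each of the 10 chaperone genes against the round spermatid score (mean log2 CPM), with 1 point per testis coloured by genotype. Hspa1l runs from 1.28 to 33.79 FPKM and climbs above a score of 5, and Hspa2 and Hspa4l climb by far less. Each genotype has testes below and above the median score of 4.38, and the lowest homozygous score is 3.58.

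Hspa2 and Hspa4l also rose, by far less. Hspa2 (chromosome 12, 76404176 to 76406938, plus strand, 1 exon) had 597.60, 629.98 and 554.34 FPKM in the wild-type, 604.52, 628.16 and 517.69 in the heterozygous and 559.14, 592.52 and 675.07 in the homozygous testes. The lowest value belonged to the testis with the lowest score. In FPKM the order of Hspa2 followed that of the score in 1 of 3 genotypes. Wild-type replicate 2 was above replicate 1 in FPKM, though not in CPM (1612 against 1664). Its slope was 0.10 (standard error 0.025, adjusted p = 0.00869), which over the whole range of the score is a 1.31-fold change. Hspa4l (chromosome 3, 40744495 to 40796103, plus strand, 19 exons), whose product serves as an exchange factor for HSP70, had 364.84, 374.13 and 323.63 FPKM in the wild-type, 366.43, 348.60 and 318.98 in the heterozygous and 335.56, 337.21 and 372.85 in the homozygous testes. In FPKM its order followed that of the score in 2 of 3 genotypes. Its slope was 0.06 (standard error 0.019, adjusted p = 0.0352), a 1.17-fold change over the range. Its close relative Hspa4, which most tissues express, had a slope of 0.03 (adjusted p = 0.341), and the ratio of Hspa4l to Hspa4 in FPKM lay between 3.03 and 3.83. In all, 3 of 10 chaperones were called higher with the score and 0 lower, where 18.6% of all genes tested were called higher and 10.4% lower. The share of the 10 called in either direction was close to that of all genes (29.0%; at an unadjusted p under 0.05, 5 of 10 against 41.1%), and their median slope was -0.03 against -0.02 over all genes.

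No other chaperone passed the test. Hspa5 (chromosome 2, 34771970 to 34777547, plus strand, 9 exons), the HSP70 of the endoplasmic reticulum, had 322.05, 404.39 and 408.71 FPKM in the wild-type, 401.94, 367.41 and 429.22 in the heterozygous and 408.65, 393.49 and 330.14 in the homozygous testes. Both of its lowest testes were the 2 with the highest score, and its slope was -0.06 (standard error 0.022, adjusted p = 0.067). Hspa8 (chromosome 9, 40800984 to 40810087, plus strand, 9 exons), the constitutive cytosolic HSP70, had 185.18, 309.05 and 275.69 FPKM in the wild-type, 342.31, 263.56 and 324.92 in the heterozygous and 281.87, 261.41 and 229.80 in the homozygous testes. Its slope of -0.08 (standard error 0.039, adjusted p = 0.153) rested on scattered points, with the highest value in a testis of high score, heterozygous replicate 1. Single testes decided it: without that testis the slope was -0.13 and passed (adjusted p = 0.00352), and without wild-type replicate 1 it was -0.011 (adjusted p = 0.887). Hspa5 likewise passed without heterozygous replicate 1 (-0.07, adjusted p = 0.00493) and was at -0.04 without wild-type replicate 1 (adjusted p = 0.334).
Hsp90ab1 (chromosome 17, 45567775 to 45573271, minus strand, 11 exons), the constitutive cytosolic HSP90, ran from 219.56 to 305.58 FPKM, and its slope was -0.07 (standard error 0.028, adjusted p = 0.0816). It was -0.10 and passed without heterozygous replicate 1 (adjusted p = 0.000837), and -0.03 without wild-type replicate 1 (adjusted p = 0.571). Hsp90aa1 (chromosome 12, 110690605 to 110702728, minus strand, 11 exons) ran from 1182 to 1408 FPKM with a slope of -0.03 (standard error 0.021, adjusted p = 0.315). In 3 of 3 genotypes its FPKM fell in the reverse order of the score. In CPM that order was broken in the wild-type testes (3979 in replicate 1, 3967 in replicate 2). It was also broken in the homozygous testes (4211 in replicate 2, 4208 in replicate 1). Hspa9, the mitochondrial HSP70, ran from 150.29 to 163.35 FPKM with a slope of 0.02 (standard error 0.019, adjusted p = 0.564). The 95% interval of that slope was -0.03 to 0.06.
The inducible pair gave slopes of -0.08 for Hspa1a (95% interval -0.24 to 0.08, adjusted p = 0.418) and -0.02 for Hspa1b (-0.17 to 0.12, adjusted p = 0.828). Summed, they had a slope of -0.04 (standard error 0.058, adjusted p = 0.588). The ratio of Hspa1l to the sum of the pair in FPKM went from 0.185 in the testis with the lowest score to 7.79 in that with the highest.

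**Figure D2:**
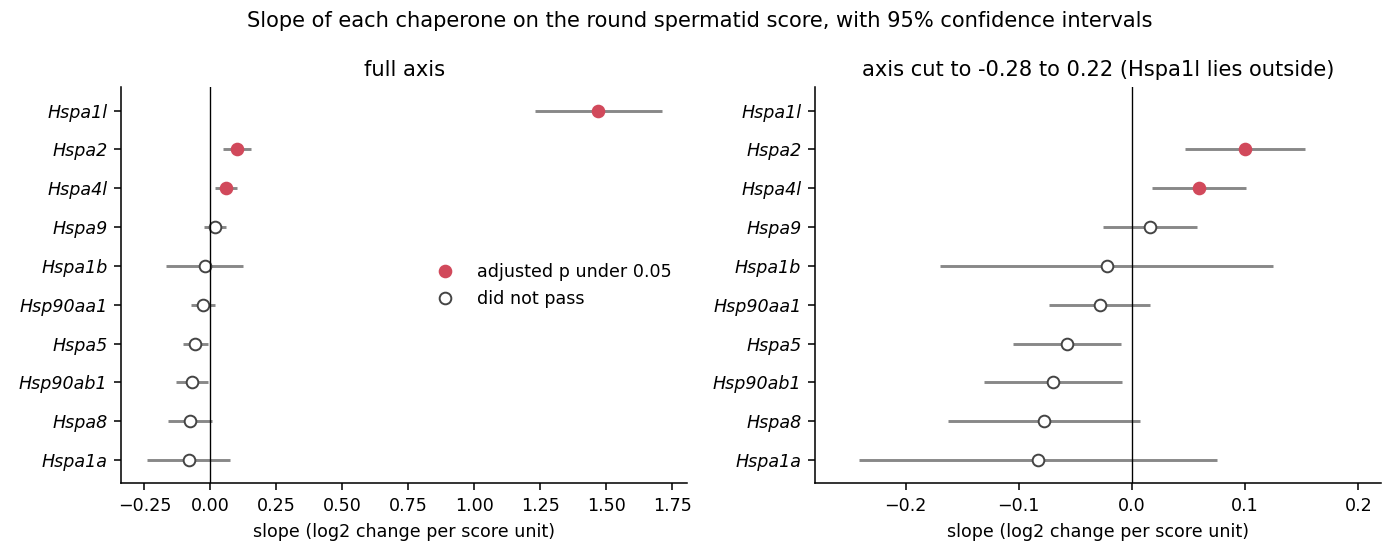
Slope of each chaperone on the round spermatid score (log2 change per unit of score, horizontal axis) with its 95% confidence interval, on the full axis at left and on an axis cut to show the 9 other genes at right. Filled points passed an adjusted p under 0.05: Hspa1l at 1.47, Hspa2 at 0.10 and Hspa4l at 0.06.

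How firmly a slope was called differed between the 3. Hspa1l kept an adjusted p under 0.05 in 21 of 22 alternatives, Hspa2 in 16 and Hspa4l in 9. Among single testes, Hspa2 was not called without heterozygous replicate 3 (0.09, adjusted p = 0.0862), and Hspa4l was not called without wild-type replicate 1 or 3, heterozygous replicate 3 or homozygous replicate 1, 2 or 3 (adjusted p between 0.0718 and 0.177). The scaling decided the smaller slopes: with library size alone, 2386 genes were called higher and 3607 lower in place of 2937 and 1641 (39.8% against 64.2% higher), Hspa4l was no longer called (0.02), and Hspa5 (-0.09), Hsp90ab1 (-0.11) and Hsp90aa1 (-0.07) were called lower. The score was measured in the same libraries, in which genes of other marker lists moved too. These lists cannot show which cells of a whole testis held the RNA. Of the genes tested, 8 of 8 in the elongating spermatid list and 11 of 16 in the pachytene spermatocyte list rose with the score. In the leptotene and zygotene list 5 of 12 fell, in the spermatogonial list 4 of 13 and in the Sertoli cell list 4 of 12. Against these directions, 1 gene of the pachytene list fell, and 1 each of the leptotene and zygotene and of the Sertoli cell list rose. Outside the germline, 2 of 7 Leydig cell genes also rose (Cyp17a1 by 0.97 and Cyp11a1 by 0.41 per unit). Of 7 macrophage genes Csf1r rose (0.13, adjusted p = 0.0271), and of 6 peritubular myoid cell genes Tagln fell (-0.11, adjusted p = 0.0383). The Leydig genes summed to between 178 and 444 CPM, and none was at 0. The part of these cell types in the slopes was not tested. In whole testes a change in the number of cells of a type and a change in the RNA per cell cannot be told apart.

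The make-up of the HSP70 messages varied between testes, which is given here as a description without a test. The 8 HSP70 members summed to between 1662 and 1899 FPKM per testis, a ratio of 1.14. Hspa2 gave between 29.4% and 37.6% of that sum, Hspa4l between 18.1% and 21.96%, Hspa5 between 18.4% and 24.4%, Hspa8 between 11.1% and 18.5% and Hspa9 between 8.35% and 9.30%. The share of Hspa9 varied less than the sum, by a ratio of 1.11. Hspa1l gave 0.0728% in the testis with the lowest score and 2.03% in that with the highest, where it reached 5.65% of the level of Hspa2. The germ cell members Hspa2, Hspa4l and Hspa1l together made up 47.7% in the testis with the lowest score and 60.0% and 60.1% in the 2 with the highest. Hspa5 and Hspa8 together went from 42.9% to 30.5% and 31.2% in the same testes. Heterozygous replicate 1, next in score, stood at 52.1% and 39.2%, nearer to testes of low score.

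**Figure D3:**
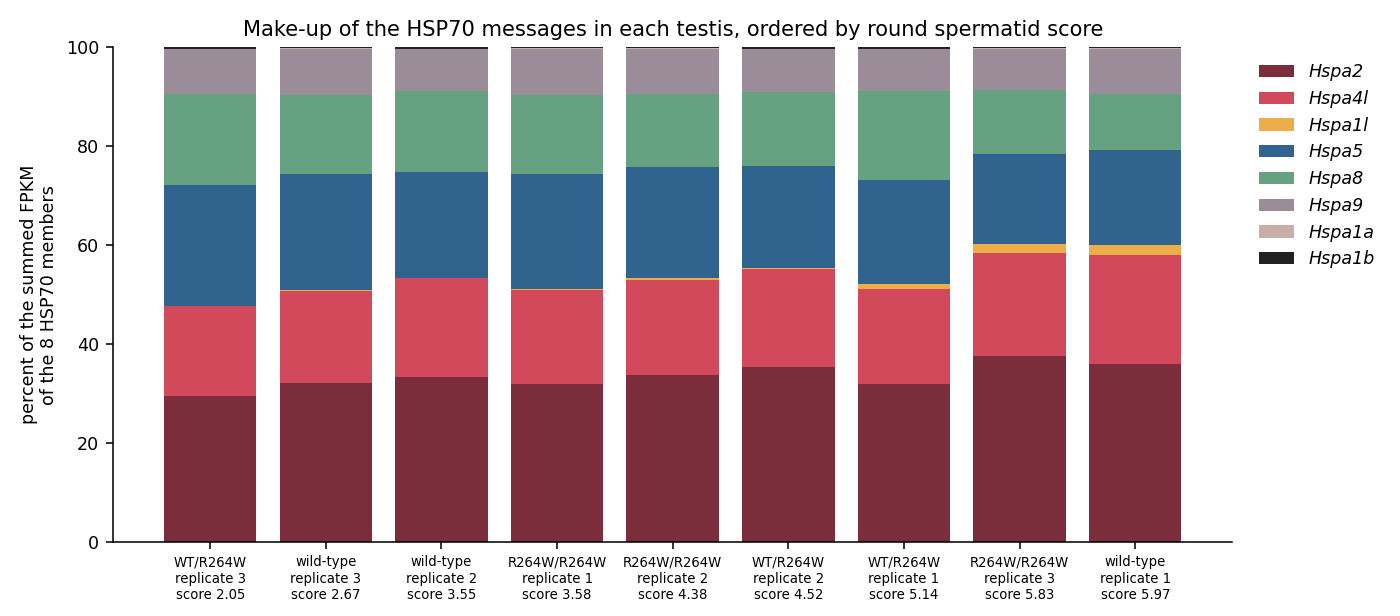
Share of each HSP70 member in the summed FPKM of the 8 (percent, vertical axis) in each of 9 testes, ordered from the lowest to the highest round spermatid score. Hspa2, Hspa4l and Hspa1l fill 47.7% of the bar at the left end and 60.0% at the right end.

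The partners of the 10 chaperones were followed through 8 lists that hold 117 other genes, of which 114 were tested. With the score, 27 of them rose and 8 fell, where 29.0% of all genes were called in either direction. Their median slope was 0.00, and with library size alone the split was 19 higher and 26 lower. The DnaJ list held most of the rises, with 14 of 28 genes higher and 2 lower (10 and 6 with library size alone, 9 or 10 and 1 with limma, 9 and 1 without heterozygous replicate 3). Dnajb8, a testis-enriched DnaJ protein known to suppress protein aggregation, rose most, with a slope of 2.14 (standard error 0.16, adjusted p = 1.80e-07). Its counts were 402, 5 and 7 in the wild-type, 193, 20 and 0 in the heterozygous and 12, 73 and 268 in the homozygous testes, where the count of 0 allows up to 0.158 CPM (3 counts, counting error only). Dnajb7 followed with 1.85 (standard error 0.11) and from 0.35 to 24.02 FPKM, and Dnajc5b, a testis form of cysteine string protein, with 1.07 (standard error 0.049) and from 2.57 to 42.06 FPKM. The testes that were high for these 3 genes were those that were high for Hspa1l. The 2 genes that fell were Dnajc3 (-0.10), a partner of Hspa5, and Dnajc5 (-0.07), the widely expressed cysteine string protein.

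Among 13 nucleotide exchange factors and regulators of HSP70, 5 rose and 0 fell. Bag5 rose by 0.26 per unit (standard error 0.025, adjusted p = 2.31e-06), from 135.67 FPKM in the testis with the lowest score to 253.61 in that with the highest. Bag6, which is needed for the stability of HSPA2 in spermatocytes, rose by 0.15 and Bag3 by 0.13. Of 23 HSP90 cochaperones, 1 rose and 2 fell. The first was Pih1d1 (0.10), a subunit of the R2TP complex, and the others were Fkbp6 (-0.10), a cochaperone needed for meiosis and for small RNA loading in the male germline, and Tomm34 (-0.07). Fkbp6 had its lowest FPKM, 49.20 and 50.65, in the 2 testes with the highest score. With library size alone 9 HSP90 cochaperones fell and 0 rose, without heterozygous replicate 1 it was 4 and 3, and without wild-type replicate 1 it was 0 and 0. None of 9 other HSP70, HSP110 and HSP90 genes passed (0 higher, 0 lower), with slopes from -0.06 to 0.06, though 2 had an unadjusted p under 0.05 and 3 fell with library size alone.

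In the endoplasmic reticulum list, 4 of 19 genes tested rose and 3 fell. With library size alone 4 rose and 9 fell, without heterozygous replicate 1 it was 4 and 8, and 7 of the other 8 fits without 1 testis gave 4 and 1. Pdilt, a testis-specific member of the protein disulfide isomerase family, had a slope of 1.13 (standard error 0.038, adjusted p = 4.35e-11), and Calr3, a germ cell calreticulin that works with it on sperm surface proteins, had one of 0.99 (standard error 0.13). Pdilt ran from 1.85 to 40.97 FPKM and Calr3 from 0.95 to 11.50, and both were highest in wild-type replicate 1 and homozygous replicate 3. Creld2 also rose (0.17). The genes that fell were general enzymes or partners, Pdia4 (-0.11), Dnajc3 (-0.10) and P4hb (-0.07). Of 14 mitochondrial partners of Hspa9, Clpx alone was called, with a slope of 0.16.

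Among heat shock factors, 3 of 6 genes tested rose and 0 fell. Hsf2, a heat shock factor with roles in gametogenesis, rose by 0.22 per unit (standard error 0.031, adjusted p = 0.000122), from 10.3 to 17.6 FPKM, Hsf5, which is germ cell specific, rose by 0.09 and Hsbp1, a negative regulator of Hsf1, by 0.09. The rises of Hsf5 and Hsbp1 did not pass with library size alone, and 1 gene of the list was called without wild-type replicate 1 or 3 or heterozygous replicate 3. The 18 heat-inducible and immediate early genes, which respond to stress and to handling of tissue, gave 2 higher (Bag3 at 0.13 and Dnajb1 at 0.10) and 2 lower (Btg2 at -0.20 and Egr1 at -0.17). That split was 1 and 4 with library size alone and 3 and 5 without heterozygous replicate 1, and 0 were lower without wild-type replicate 1 or without homozygous replicate 1, 2 or 3.

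**Figure D4:**
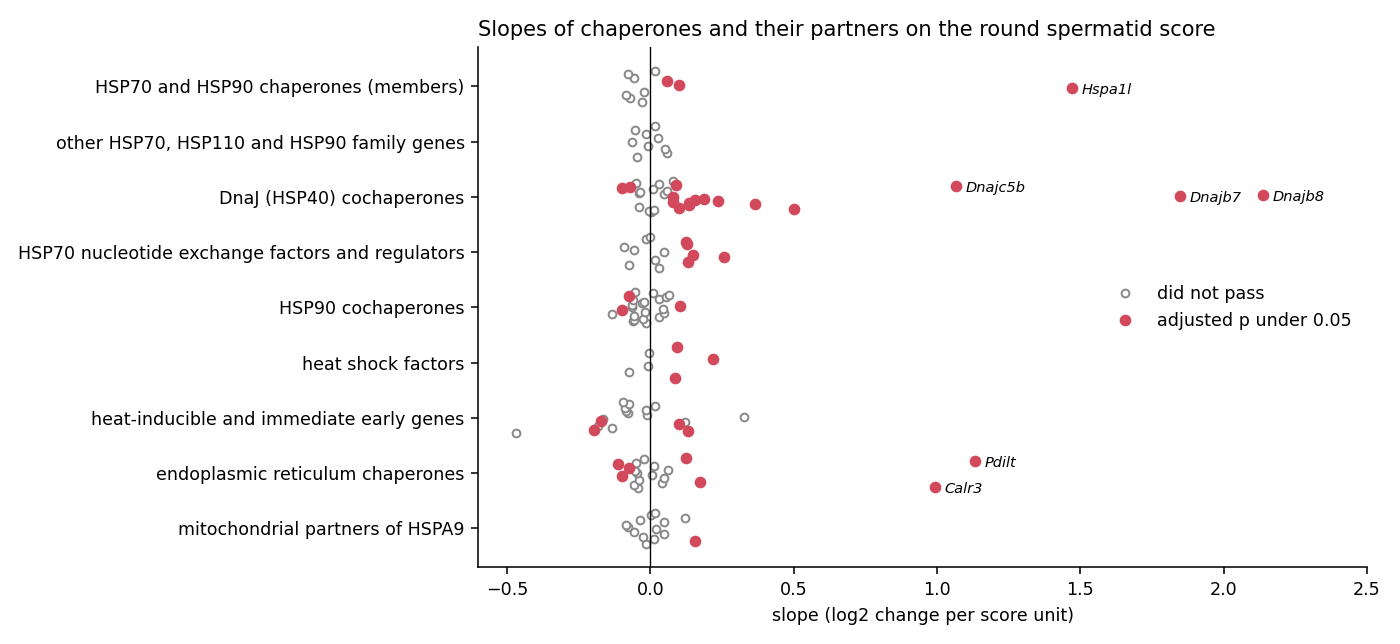
Slopes on the round spermatid score (log2 change per unit of score, horizontal axis) of the 10 chaperones and of each list of partners, with 1 point per gene tested and filled points at an adjusted p under 0.05. Hspa1l, Dnajb7, Dnajb8, Dnajc5b, Pdilt and Calr3 stand at or above 0.99, and the filled point next below them is Dnaja4 at 0.50.

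The genotypes were compared in pairs, to ask whether the R264W allele changed the chaperones in the 3-week-old testis. No chaperone passed in any comparison. At an adjusted p under 0.05, edgeR called 0 of 10 chaperones and 0.0% of all genes in each of the 3 comparisons, and DESeq2 called 2, 6 and 0 genes, none of them one of the 10. At an unadjusted p under 0.05, 0 of 10 chaperones were called, where 1.26% of all genes were called between homozygous and wild-type testes, 2.22% between homozygous and heterozygous testes and 1.11% between heterozygous and wild-type testes. The median log2 fold changes of the 10 were -0.01, -0.03 and 0.02, and those of all genes -0.01, 0.01 and -0.02.

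For 8 of the 10 genes, all but Hspa1l and Hspa1b, the estimates lay between -0.23 and 0.24 in all 3 comparisons. Against wild-type testes, the homozygous testes had a log2 fold change of 0.03 for Hspa2 (95% interval -0.29 to 0.36) and of -0.12 for Hsp90ab1 (-0.42 to 0.18), the genes with the smallest p among those with higher and with lower estimates. Against heterozygous testes the corresponding genes were Hspa2 at 0.10 (-0.23 to 0.43) and Hspa1b at -0.38 (-0.78 to 0.02, unadjusted p = 0.0593, adjusted p = 0.948). Hspa1b had 3.96, 2.81 and 3.35 FPKM in the homozygous and 4.97, 4.11 and 4.39 in the heterozygous testes. Those values did not overlap, and in CPM 2 of 10 chaperones, Hspa1b and Hspa9, did not overlap in this comparison, against 7.15% of all genes tested. Summed with Hspa1a, which shares its reads, the log2 fold change was -0.29 (standard error 0.18). Between heterozygous and wild-type testes, Hspa8 was at 0.24 (-0.19 to 0.66) and Hspa4l at -0.07 (-0.32 to 0.17), and 0 of 10 chaperones were free of overlap, against 5.31% of all genes. The comparison of homozygous with wild-type testes also gave 0 of 10, against 5.68%.

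Hspa1l had the widest intervals, and each genotype held both low and high testes. Its log2 fold change was 0.01 (standard error 1.42) for homozygous against wild-type, 0.85 (standard error 1.22) for homozygous against heterozygous and -0.84 (standard error 1.37) for heterozygous against wild-type testes. These values were decided by single testes: the comparison with wild-type went to 2.70 without wild-type replicate 1 and to -1.78 without homozygous replicate 3. With the round spermatid score in a fit of all 9 testes, the difference between homozygous and wild-type testes was -0.22 with a standard error of 0.33. The Leydig cell genes summed to between 178 and 422 CPM in the wild-type, 179 and 290 in the heterozygous and 282 and 444 in the homozygous testes, with 0 of 7 past an adjusted p under 0.05. Their part in the chaperone values was not tested.

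Among the partners, no list had a gene past an adjusted p under 0.05 in any genotype comparison with edgeR. At an unadjusted p under 0.05, Fkbp5 had a higher estimate in homozygous than in wild-type testes (0.24) and than in heterozygous testes (0.23). In the latter comparison Unc45b, a gene of only 0.76 to 2.30 CPM over the testes, was also higher (0.83). Nudc (-0.17), Egr1 (-0.49) and Ier2 (-0.50) were lower there, and Unc45b was lower in heterozygous than in wild-type testes (-0.96). These comparisons share libraries, and the 5 genes were named after their values were seen.

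**Figure D5:**
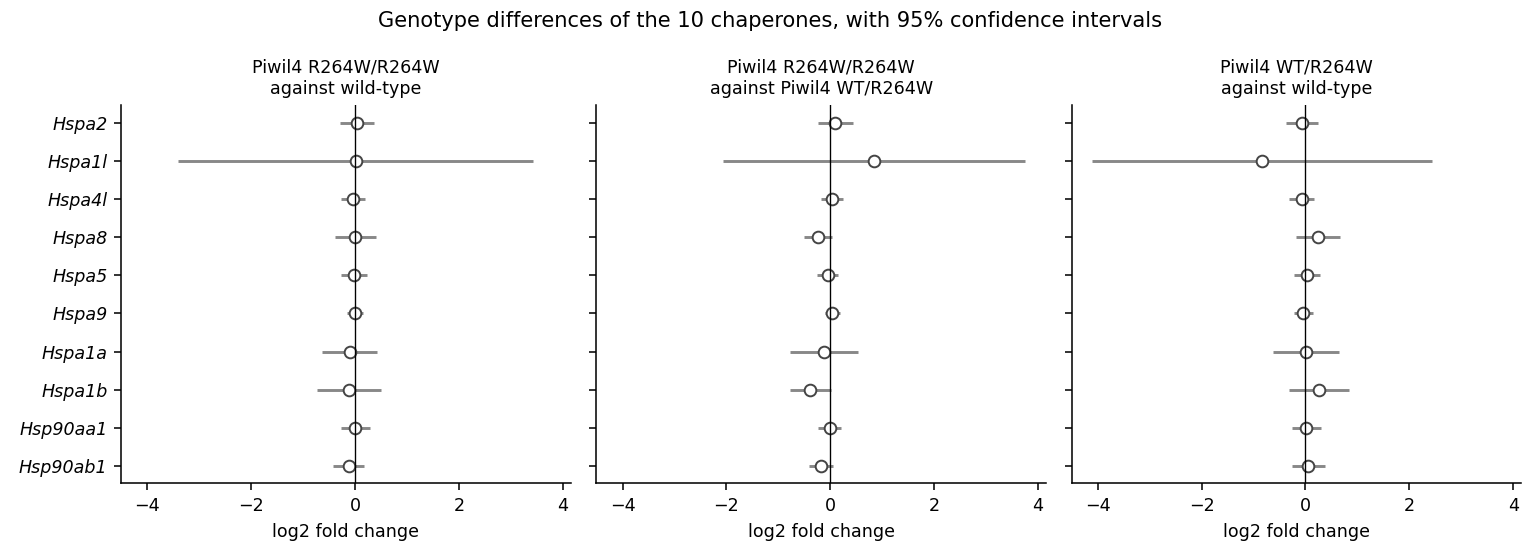
Log2 fold change (horizontal axis) of each chaperone in the 3 comparisons of genotypes, with 95% confidence intervals. Every interval includes 0, and those of Hspa1l, which run from -3.41 to 3.44 for homozygous against wild-type testes, are the widest.

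The genes most like 4 of the chaperones across the 9 testes were picked by Pearson's r of log2 CPM among 9929 genes with a mean of at least 10 CPM. All points share the libraries and their scaling, so r is given as a description. The genes most like Hspa1l were Fbxo24 (r = 0.994), Spata18 (0.994) and 1700019N19Rik (0.992). Spata18 went from 4.56 to 28.6 FPKM over the testes, and 1700019N19Rik from 16.5 to 68.0. For Hspa2 they included Zfp574 (0.988) and Rfx2 (0.987), for Hspa4l they were Ak7 (0.986), Ccdc83 (0.980) and Iqgap1 (0.978), and for Hsp90aa1 Pole3 (0.984), H3f3b (0.978) and Cnbp (0.968).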

How the data were processed

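Total RNA was isolated from 9 testes of 3-week-old mice, 3 per genotype. The sequencing libraries were made from it with an mRNA-seq kit. Per the labels and methods, the authors filtered reads with fastp 0.18.0 and assembled them with StringTie 1.3.1 on mm39. The aligner, the counting tool and the strand setting are not given in the sources used here. The authors deposited 1 table with estimated counts per gene, not scaled for depth, and FPKM per gene, scaled by length and depth, with 0 other columns of per-sample values.

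Estimated counts were rounded to whole numbers. Genotypes were compared in pairs over 6 libraries with edgeR 4.0.16 (R 4.3.3; filterByExpr, TMM, quasi-likelihood test, Benjamini-Hochberg adjustment over all genes tested, threshold 0.05, all tests two-sided). The round spermatid score, from log2 CPM with a prior count of 1, was fitted over 9 libraries with genotype as a covariate. Standard errors and 95% intervals come from these fits. Levels between genes were compared in the deposited FPKM. The fits were also run on counts simulated with the dispersions and designs fitted to these data, which cannot show whether those designs hold. Alternatives were DESeq2 1.42.0, its size factors, library size alone, no filter, limma 3.58.1 on log2(FPKM + 0.1) and log2(FPKM + 1) for genes with a mean of at least 0.5 FPKM, other scores, a replicate block, a summed Hspa1a and Hspa1b, and fits with testes left out.

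The 10 genes, the lists and the tests were chosen with earlier results of these data known. Named were the 10 genes, Piwil4, per genotype comparison the higher and the lower chaperone with the smallest p, per list up to 3 called genes in each direction, and the 3 most similar genes of 4 chaperones, of which 1 gene for Hspa2 is not reported here. Other genes are named as chosen after their values were seen, or because they lie beside or resemble a chaperone. Ddit3, whose symbol is on 2 rows, was left out. The totals of 17.96 to 24.3 M counts put 3 counts at 0.122 to 0.172 CPM. The labels do not tell whether testes of a group are independent beyond being separate samples, so p-values measure the spread between these samples. An exact permutation test of 3 against 3 cannot go below p = 0.1, so none was used.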

Additional observations from a re-analysis of the deposited data

How the results depend on the processing

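The number of chaperones higher with the score, 3 as reported, was 1 with limma on log2(FPKM + 0.1) and on log2(FPKM + 1), 1 without the 2 testes farthest from the median score, 1 without the 2 with the highest score (chosen after seeing the data) and 0 with the fall of the Sertoli cell score, where 0 genes passed in all. Hspa1l was the gene called in the cases of 1 (slope of 1.08, adjusted p = 0.108, with the Sertoli cell score). Leaving out 1 testis at a time gave 1 to 3, with 1 without heterozygous replicate 3. The number lower, 0 as reported, was 3 with library size alone, 1 with each limma fit (Hspa5), 2 without the genotype term and 2 with the pachytene score (Hspa5 and Hsp90ab1), and 0 to 3 with 1 testis left out, with 3 (Hspa5, Hspa8 and Hsp90ab1) without heterozygous replicate 1. The limma fits called 44.9% and 43.2% of genes as higher among all called. Genes called either way, 4578 as reported, were 2556 to 6371 with 1 testis left out, 1812 without the 2 farthest and 1147 without the 2 highest testes.

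Partner genes higher and lower with the score were 18 to 31 and 1 to 18 with 1 testis left out (31 and 18 without heterozygous replicate 1, 18 higher without heterozygous replicate 3, 1 lower without wild-type replicate 1). Slopes that turned sign were that of Hspa9 (-0.0198 with library size alone, -0.0198 and -0.0197 with the limma fits), Hspa8 (0.013 without the 2 highest testes) and Hspa1b (0.067 without the 2 highest, -0.070 to 0.060 with 1 testis left out). None of these was called in either direction in those fits, and the cause was not tested.

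Between genotypes, chaperones at an unadjusted p under 0.05 were 0 to 1 for homozygous against wild-type with 1 testis left out (1, Hsp90ab1, without wild-type replicate 1), 0 to 2 for homozygous against heterozygous (2, Hspa8 and Hsp90ab1, without heterozygous replicate 2, and 1, Hspa1b, without homozygous replicate 1) and 0 to 1 for heterozygous against wild-type (1, Hspa1b, without wild-type replicate 2). The second comparison also gave 1 with library size alone and 1 with each limma fit. In all 9 testes with the score, Hspa2 turned to -0.026 and Hspa1l to -0.22 against wild-type, and Hspa1l to -0.14 against heterozygous testes. With 1 testis left out, Hspa2 ran from -0.085 to 0.11 and Hspa1l from -1.78 to 2.70 in the first comparison, Hspa2 from -0.020 to 0.17 and Hspa1l from -0.94 to 2.45 in the second, and Hspa1l from -2.45 to 1.86 and Piwil4 from -0.077 to 0.32 in the third.

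Of the same-numbered pairs of testes, 2 of 9 had a correlation of deviations over 0.1 (range -0.81 to 0.86). Testes of different number but like score also correlated (0.86 for wild-type replicate 1 with homozygous replicate 3). The check therefore cannot decide whether replicate numbers pair the testes. With the replicate number as a block, the slope of Hspa4l was 0.06 and not called (adjusted p = 0.154), and 2702 genes were higher and 1148 lower with the score. Depth limits Piwil4, at 18 to 46 counts a testis, more than Hspa1a, at 76.7 to 169.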
